A study of Homo sapiens with 18 samples.

Results

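The genes described here are 10 core components of the insulin-like growth factor (IGF) system: the ligand IGF2, the receptors IGF1R, IGF2R and INSR, the receptor substrates IRS1 and IRS2, and the binding proteins IGFBP2, IGFBP3, IGFBP4 and IGFBP5. They were taken by symbol from the annotation of the array's probes. All 10 had a probe, 1 each, among 17687 genes with a symbol. RNA had been measured on 18 whole-transcript arrays from SK-N-BE(2) and CHLA-90, established human neuroblastoma lines of which the first carries amplified MYCN. Each line received pLKO lentivirus, packaged in HEK-293T cells, that encoded the control hairpin shNSC or a hairpin against the kinase ERK5 (gene MAPK7), shERK5-4 or shERK5-5. RNA was collected at 72 hours, and each of the 6 groups had 3 biological replicates. All groups grew in medium with 20% fetal bovine serum and 1% insulin–transferrin–selenium supplement, so insulin and serum growth factors were present in every culture. Each group is a population of 1 line carrying 1 hairpin, and the p-values rest on the spread between replicates, pooled over the 6 groups and moderated over probes.

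IGF2 is a secreted growth factor that signals through IGF1R, a receptor tyrosine kinase, and through INSR, the closely related insulin receptor. IGF2R, also called the cation-independent mannose 6-phosphate receptor, takes IGF2 to lysosomes for degradation and sorts lysosomal enzymes. It does not carry a kinase. IRS1 and IRS2 dock on the activated receptors and recruit phosphoinositide 3-kinase, which activates AKT and mTOR. The IGFBPs hold IGFs in the extracellular space, where they can block or prolong ligand action. IGF2 and IGF1R have long been studied as a growth and survival axis in neuroblastoma.

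Promoter windows are shown for IGF2R, IRS2, IGFBP3 and IGFBP5, since these genes passed the test in at least 2 of the 4 comparisons of a hairpin with shNSC. Each window holds the 250 bases before an annotated RefSeq start (build GRCh38.p14), printed 5′ to 3′ on the gene's strand. Capitals mark matches, on either strand, to the GC box GGGCGG, the E-box CACGTG, the TATA box TATAAA or the FOXO motif TGTTTAC, with overlapping matches counted. The windows are IGF2R at chr6:159968832-159969081 (plus strand), IRS2 at chr13:109786584-109786833 (minus), IGFBP3 at chr7:45921273-45921522 (minus) and IGFBP5 at chr2:216695550-216695799 (minus).
IGF2R: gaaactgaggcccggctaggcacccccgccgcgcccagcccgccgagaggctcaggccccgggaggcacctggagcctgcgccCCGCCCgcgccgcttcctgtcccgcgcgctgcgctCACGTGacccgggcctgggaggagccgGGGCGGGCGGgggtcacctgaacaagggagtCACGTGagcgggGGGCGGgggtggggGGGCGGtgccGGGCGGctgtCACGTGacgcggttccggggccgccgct
IRS2: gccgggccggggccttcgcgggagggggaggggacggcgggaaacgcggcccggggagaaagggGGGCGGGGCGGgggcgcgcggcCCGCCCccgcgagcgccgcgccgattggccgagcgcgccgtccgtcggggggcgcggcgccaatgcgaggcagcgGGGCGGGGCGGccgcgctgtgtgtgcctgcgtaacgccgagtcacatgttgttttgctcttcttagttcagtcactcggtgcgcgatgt
IGFBP3: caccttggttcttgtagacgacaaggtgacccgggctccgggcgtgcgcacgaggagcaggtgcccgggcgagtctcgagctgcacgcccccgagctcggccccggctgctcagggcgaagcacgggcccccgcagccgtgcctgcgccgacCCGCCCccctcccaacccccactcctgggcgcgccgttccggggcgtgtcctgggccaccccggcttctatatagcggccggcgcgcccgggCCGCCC
IGFBP5: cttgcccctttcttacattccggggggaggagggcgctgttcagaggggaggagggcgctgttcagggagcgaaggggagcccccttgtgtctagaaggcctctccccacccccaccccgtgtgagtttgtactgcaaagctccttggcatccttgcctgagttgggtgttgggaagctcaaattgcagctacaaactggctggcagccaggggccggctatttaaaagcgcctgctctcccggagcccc

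The IGF2R window held 3 E-boxes, the motif bound by MYC-family and related factors, starting 132, 74 and 28 bases before the start site. It also held 6 GC boxes. Of 35116 windows of this length in the table, 6.34% held at least 1 E-box and 28 held at least 3. IRS2 had 5 GC boxes, a number reached or passed in 4.15% of windows, and IGFBP3 had 2, reached or passed in 24.3%. IGFBP5 matched none of the 4 motifs, and its window had 8 CpG dinucleotides against 33 in IGF2R, 42 in IRS2 and 32 in IGFBP3. The median over all windows was 11. GC content was 79.2% for IGF2R, 76.4% for IRS2, 76% for IGFBP3 and 61.2% for IGFBP5, against a median of 58%. In all, 9 of the 10 genes matched the table, with 11 windows. The 4 motifs occurred in 10.7% (TATAAA), 42.6% (GGGCGG), 6.34% (CACGTG) and 2.98% (TGTTTAC) of windows. These matches describe letters and not bound sites.

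The knockdown target was lower in every hairpin group. MAPK7 signals were 6.46 to 6.99 in SK-N-BE(2) shNSC, 5.97 to 6.28 with shERK5-4 and 6.02 to 6.28 with shERK5-5. In CHLA-90 they were 8.24 to 8.64, 7.15 to 7.57 and 7.22 to 7.83. SK-N-BE(2) had log2 fold changes of -0.69 (shERK5-4) and -0.64 (shERK5-5), and CHLA-90 had -1.07 and -0.99. All 4 were called, a word used here for a limma p, adjusted over all 21448 probes, under 0.05. Both SK-N-BE(2) calls were lost in some fits without 1 array (adjusted p 0.061 without 1 array for shERK5-4, 0.0833 to 0.149 without any of 4 for shERK5-5). Array medians were 5.63 to 5.69 in SK-N-BE(2) and 6.35 to 6.43 in CHLA-90. Within a group, arrays correlated at 0.988 to 0.997, and 0 pairs were identical. The number of arrays limits the precision.

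Of the 10 IGF genes, shERK5-4 raised 1 and lowered 1 in SK-N-BE(2), 20% against 23.9% of all probes called in that comparison. With shERK5-5 in the same line 3 rose and 1 fell, 40% against 12.8% of all probes. In CHLA-90, shERK5-4 lowered 2 and raised 0 (20% against 18.3%), and shERK5-5 raised 1 and lowered 2 (30% against 12.7%). The median log2 fold changes of the 10 genes were -0.03, 0.15, 0.02 and -0.24 in this order, and those of all probes 0.01, -0.00, 0.01 and 0.05. With counts of this size, the share for shERK5-4 lay near the background in both lines. The comparisons of a line share its 3 shNSC arrays, so the hairpins were also compared with each other without them. That comparison called 7 of the 10 genes in SK-N-BE(2) (70% against 24.5% of all probes) and 4 in CHLA-90 (40% against 27.2%). Without any 1 array the counts were 5 to 6 and 3 to 4.

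**Figure D1:**
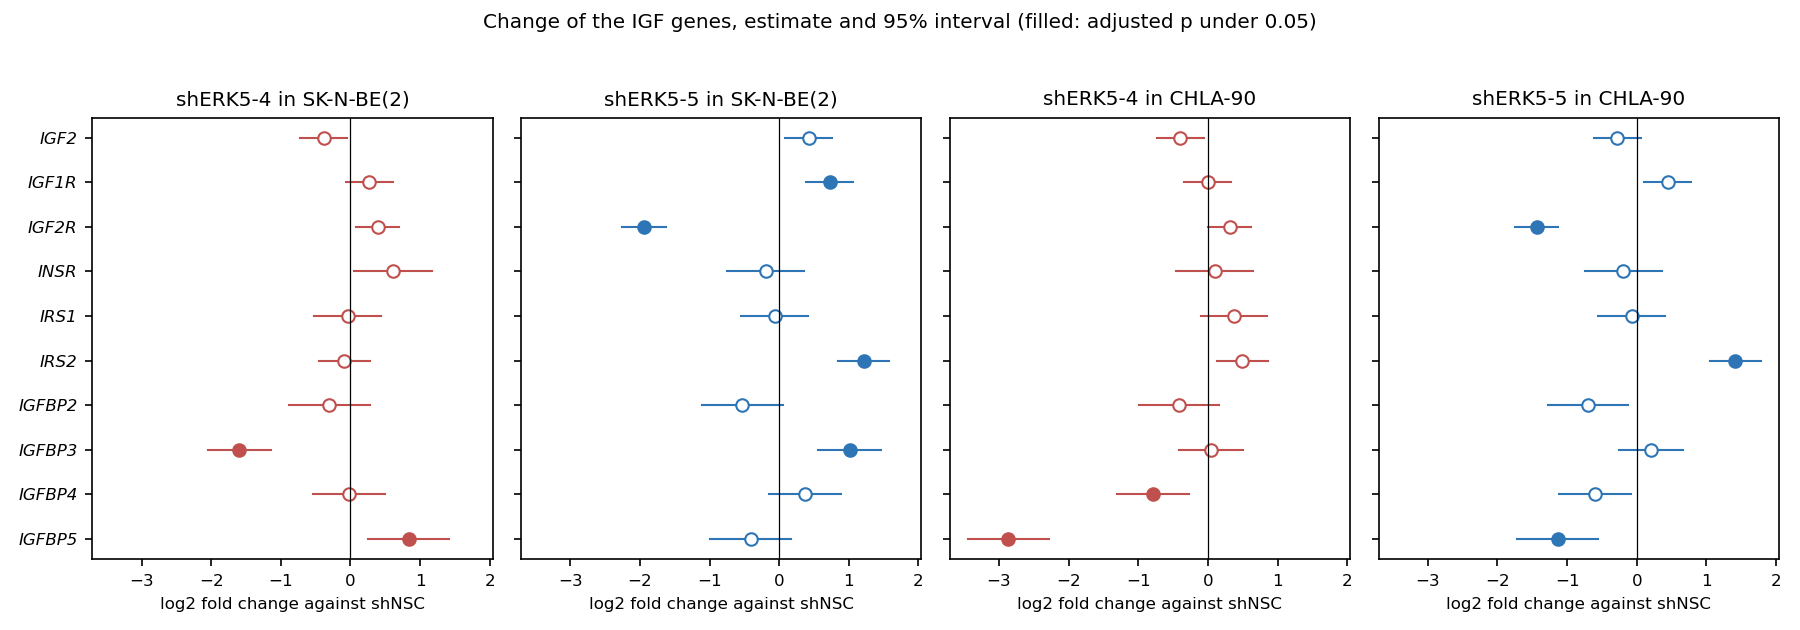
Log2 fold change against shNSC (x axis, estimate and 95% interval from limma) of the 10 IGF genes in 4 panels, 1 per hairpin and line, with filled points where the adjusted p was under 0.05. IGF2R (-1.94 and -1.44) and IRS2 (1.22 and 1.42) were filled in both shERK5-5 panels, while IGFBP3 was filled only in the SK-N-BE(2) panels, at -1.59 and 1.01.

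The ligand gene IGF2 shares sequence with the INS-IGF2 readthrough gene, and the source of the probe's signal between them cannot be told apart. In SK-N-BE(2) the log2 signals of IGF2 were 6.86, 6.97 and 6.66 with shNSC, 6.45, 6.52 and 6.37 with shERK5-4, and 7.48, 7.0 and 7.28 with shERK5-5. The 3 groups did not overlap, with shERK5-4 lowest and shERK5-5 highest. Neither difference from shNSC passed the test (log2 fold change -0.38, adjusted p = 0.098, and 0.42, adjusted p = 0.0999, limma). The hairpins themselves differed by -0.81 (shERK5-4 minus shERK5-5, 95% interval -1.14 to -0.47, adjusted p = 0.000528). In CHLA-90 the probe read 4.31 to 4.33 with shNSC, 3.81 to 4.14 with shERK5-4 and 3.88 to 4.15 with shERK5-5. These values lie near the 25th percentile of all signals on those arrays (4.06 to 4.29). All 6 hairpin arrays of CHLA-90 were below the 3 shNSC arrays, by -0.40 (adjusted p = 0.101) and -0.28 (adjusted p = 0.299) on average. The gap between hairpins there was -0.12 and did not pass the test.

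**Figure D2:**
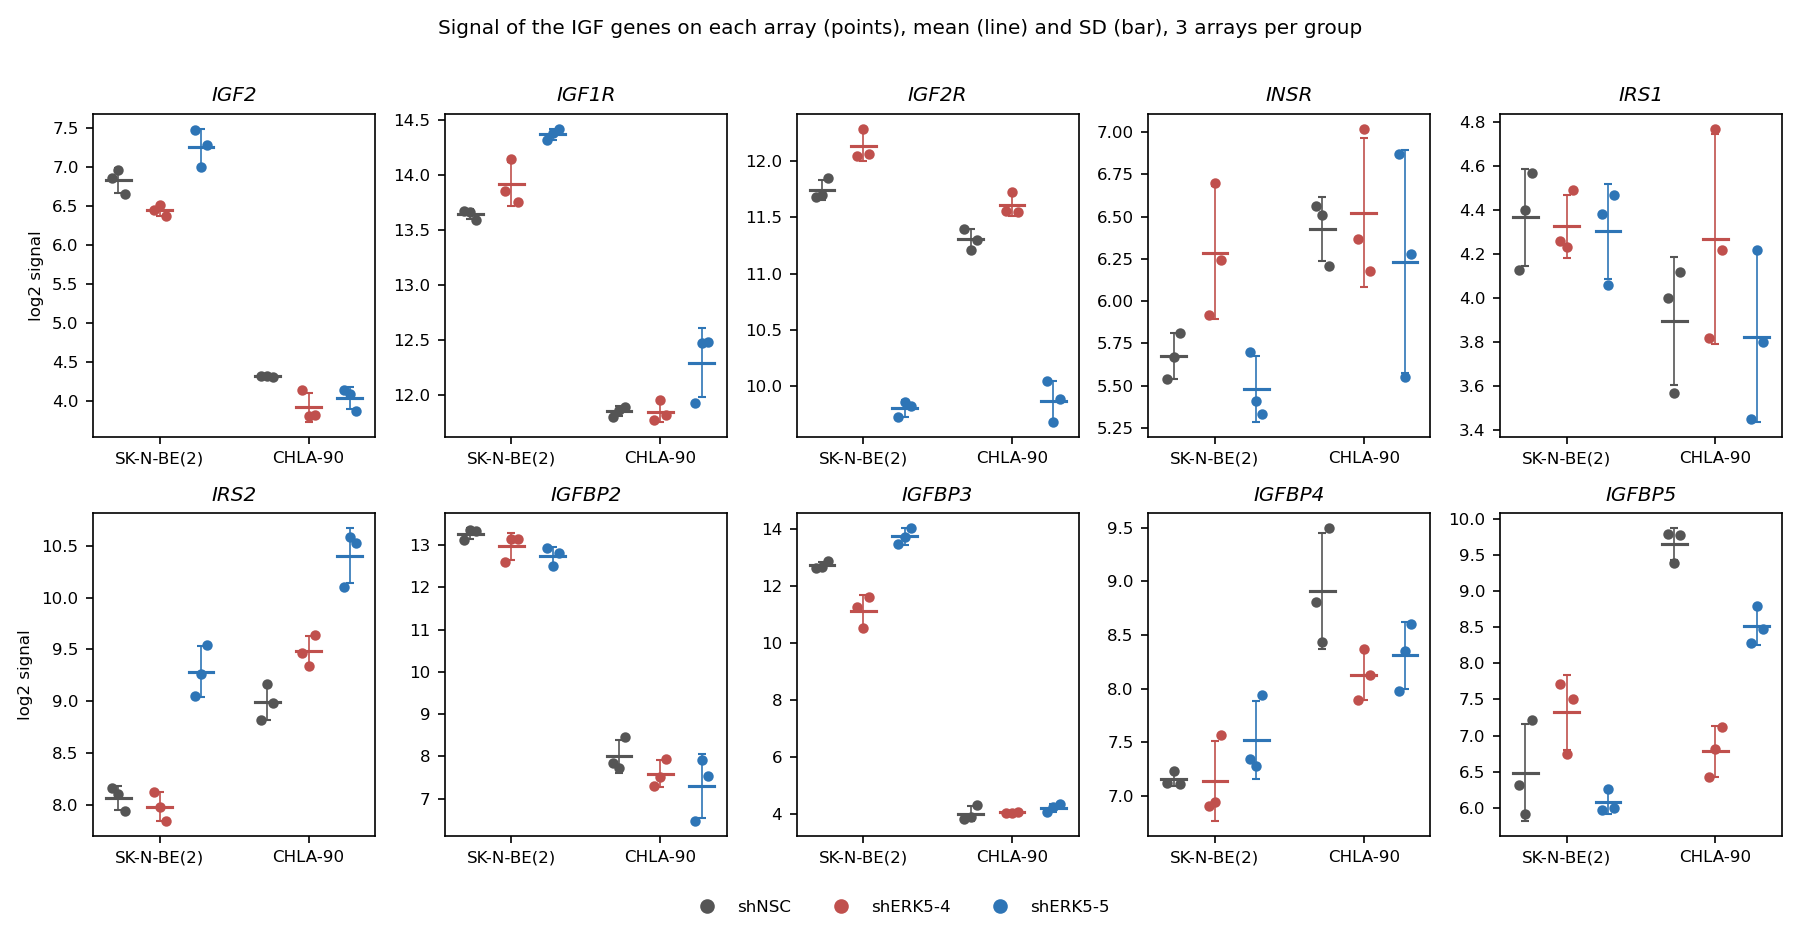
Log2 signal (y axis, its range differs between panels) of each IGF gene on each array (points), with the group mean (line) and SD (bar), for 3 arrays in each of the 6 groups. IGF2R with shERK5-5 sat at 9.72 to 9.86 in SK-N-BE(2) and 9.68 to 10.04 in CHLA-90, below every other array, and IGFBP3 stayed at 3.82 to 4.34 on all CHLA-90 arrays.

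IGF1R transmits the IGF signal through its tyrosine kinase. Its probe read 13.67, 13.66 and 13.59 in SK-N-BE(2) shNSC, 13.85, 14.14 and 13.75 with shERK5-4, and 14.31, 14.38 and 14.41 with shERK5-5. The shERK5-5 arrays were the highest 3 of that line, and the groups did not overlap. IGF1R rose 1.65-fold with shERK5-5 (log2 0.73, adjusted p = 0.00362, limma). With shERK5-4 the estimate was 0.27 (SE 0.16, adjusted p = 0.276). In CHLA-90 it read 11.80, 11.86 and 11.89 with shNSC and 11.77, 11.95 and 11.82 with shERK5-4, groups that overlapped, with an estimate of -0.00 (adjusted p = 0.994). The shERK5-5 arrays read 11.93, 12.47 and 12.48, all above shNSC, and the change of 0.44 did not pass the test (adjusted p = 0.082). Without the first of those 3 arrays it was 0.63 and passed (adjusted p = 0.014). The shERK5-5 effect did not differ detectably between the lines (difference -0.28, 95% interval -0.766 to 0.199, adjusted p = 0.546). IGF1R was lower with shERK5-4 than with shERK5-5 by -0.45 in each line (adjusted p = 0.0478 in SK-N-BE(2) and 0.0474 in CHLA-90). Each of these calls was lost in 5 fits without 1 hairpin array (adjusted p 0.0777 to 0.163 in SK-N-BE(2), without shERK5-4 replicate 1 or 3 or any shERK5-5 replicate, and 0.0666 to 0.159 in CHLA-90, without any shERK5-4 replicate or shERK5-5 replicate 2 or 3). In SK-N-BE(2) quantile normalization gave -0.29 (adjusted p = 0.242).

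IGF2R, the clearance receptor for IGF2, fell with shERK5-5 in both lines. In SK-N-BE(2) it read 11.68, 11.70 and 11.85 with shNSC, 12.05, 12.29 and 12.06 with shERK5-4, and 9.72, 9.86 and 9.82 with shERK5-5. In CHLA-90 the values were 11.40, 11.21 and 11.30, then 11.56, 11.73 and 11.55, then 10.04, 9.68 and 9.88. The groups did not overlap in either line, with shERK5-4 the highest and shERK5-5 the lowest. With shERK5-5 the signal was 26.0% of shNSC in SK-N-BE(2) (log2 fold change -1.94, SE 0.15, adjusted p = 6.16e-09, limma) and 36.9% in CHLA-90 (-1.44, SE 0.15, adjusted p = 1.01e-06). Whether fewer cells carried the transcript or each cell carried less cannot be told apart in bulk RNA. With shERK5-4 the estimates were 0.39 (adjusted p = 0.0655) and 0.31 (adjusted p = 0.181), and the first passed after quantile normalization (adjusted p = 0.0455). The hairpins stood 5.04-fold apart in SK-N-BE(2) (adjusted p = 6.84e-11) and 3.36-fold apart in CHLA-90 (adjusted p = 1.12e-08). A gap of either size exceeded the spread of the replicates, whose SD was at most 0.18 in any group. The drop with shERK5-5 was 0.51 smaller in CHLA-90 (95% interval 0.0652 to 0.948), which did not pass the adjusted test (adjusted p = 0.183).

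INSR, which binds insulin and also IGF2, did not pass the test against shNSC with either hairpin. Its SK-N-BE(2) arrays read 5.54 to 5.81 with shNSC, 5.92 to 6.70 with shERK5-4 and 5.33 to 5.70 with shERK5-5. The shERK5-4 arrays were above the other 6, and the change of 0.61 (SE 0.27) had an adjusted p of 0.11. It passed when only the arrays of that line were fitted (adjusted p = 0.0445). INSR was higher with shERK5-4 than with shERK5-5 by 0.81 (adjusted p = 0.0294), a call lost without shERK5-4 replicate 2 or 3 or shERK5-5 replicate 2 or 3 (adjusted p 0.0548 to 0.157). In CHLA-90 the groups overlapped, at 6.21 to 6.56, 6.18 to 7.02 and 5.55 to 6.87, and the estimates were 0.10 and -0.19.

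Of the receptor substrates, IRS2 rose with shERK5-5 in both lines, 2.32-fold in SK-N-BE(2) (log2 1.22, SE 0.18, adjusted p = 3.26e-05, limma) and 2.67-fold in CHLA-90 (1.42, adjusted p = 8.42e-06). In SK-N-BE(2) it read 8.16, 8.10 and 7.94 with shNSC, 8.12, 7.98 and 7.84 with shERK5-4, and 9.05, 9.26 and 9.54 with shERK5-5. The first 2 groups overlapped and the shERK5-5 arrays were the highest. In CHLA-90 the values were 8.82, 9.17 and 8.98 with shNSC, 9.47, 9.34 and 9.64 with shERK5-4, and 10.10, 10.59 and 10.53 with shERK5-5. Here the 3 groups were separate and stepped upward in that order. The shERK5-4 change in CHLA-90 was 0.49 and narrowly missed the threshold (adjusted p = 0.0548), passing when dim probes were left out (adjusted p = 0.0445) or arrays were weighted (adjusted p = 0.00941). In SK-N-BE(2) shERK5-4 gave -0.09 (adjusted p = 0.806). IRS2 was lower with shERK5-4 than with shERK5-5 in both lines, by -1.30 (adjusted p = 4.45e-06) and -0.92 (adjusted p = 0.000372). The shERK5-5 effects of the lines differed by 0.20 (95% interval -0.316 to 0.716, adjusted p = 0.721).

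IRS1, the other substrate, was not called in any of the 4 comparisons. Its signals were low in all 6 groups, 4.06 to 4.57 in SK-N-BE(2) and 3.45 to 4.77 in CHLA-90, and the hairpin groups overlapped shNSC in both lines. The 4 estimates were -0.04, -0.06, 0.37 and -0.07, with adjusted p from 0.321 to 0.943.

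IGFBP3, the main carrier of IGFs in serum, changed in opposite directions with the hairpins in SK-N-BE(2). It read 12.63, 12.68 and 12.87 with shNSC, 11.26, 10.52 and 11.62 with shERK5-4, and 13.46, 13.72 and 14.04 with shERK5-5. The groups did not overlap. With shERK5-4 the signal fell to 33.1% of shNSC (log2 fold change -1.59, SE 0.22, adjusted p = 7.48e-06, limma), and with shERK5-5 it rose 2.02-fold (1.01, adjusted p = 0.00252). The hairpins were 6.09-fold apart (adjusted p = 4.55e-09). IGFBP3 was the 1 IGF gene called in opposite directions in this line, a class that held 1.94% of all probes, and 0 of the 10 were called alike there, against 5.21%. In CHLA-90 it read 3.82 to 4.31 with shNSC, 4.04 to 4.09 with shERK5-4 and 4.08 to 4.34 with shERK5-5. These signals sat at about the 25th percentile of the arrays and overlapped, with estimates of 0.05 and 0.21. Since the probe's background is unknown, a fall there may not be measurable, which limits the comparison of the lines. The shERK5-4 effect differed between the lines by 1.64 (CHLA-90 minus SK-N-BE(2), SE 0.31, adjusted p = 0.00174). That of shERK5-5 differed by -0.81 (adjusted p = 0.143).

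In SK-N-BE(2) the summed signal of fibroblast markers, like IGFBP3, was lower with shERK5-4 and higher with shERK5-5 than with shNSC, although most of these genes had positive estimates with both hairpins. The summed log2 signal of the 7 measured of 8 markers was 69.01 to 69.67 with shNSC, 65.88 to 66.82 with shERK5-4 and 74.56 to 75.62 with shERK5-5. Of these 7 genes, 1 rose and 3 fell with shERK5-4, and 4 rose and 0 fell with shERK5-5, against 23.9% and 12.8% of all probes called. Their median log2 fold change was 0.35 with shERK5-4, where 4 estimates were positive and 3 negative, and 0.63 with shERK5-5. LUM and DCN, proteoglycans of the collagen matrix, had log2 fold changes of -3.17 and -0.56 with shERK5-4 and 1.26 and 2.21 with shERK5-5. PDGFRB, a mesenchymal receptor kinase, had -1.26 and 0.65, while COL1A1 rose with shERK5-4 by 0.88. COL1A2, THY1 and FAP had uncalled estimates of 0.35, 0.36 and 0.36 with shERK5-4. In CHLA-90, where IGFBP3 was dim and not called, the marker sums had the same order. They were 55.32 to 56 with shNSC, 53.13 to 54.31 with shERK5-4 and 56.83 to 58.91 with shERK5-5. The part of the fibroblast markers in the IGFBP3 result was not tested.

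IGFBP5, an IGF-binding protein that also attaches to extracellular matrix, fell with both hairpins in CHLA-90. It read 9.79, 9.39 and 9.77 with shNSC, 6.42, 6.81 and 7.12 with shERK5-4, and 8.28, 8.80 and 8.47 with shERK5-5. All 6 hairpin arrays were below shNSC, and shERK5-4 was the lowest group. The signal was 13.7% of shNSC with shERK5-4 (log2 fold change -2.87, SE 0.28, adjusted p = 9.64e-08, limma) and 45.6% with shERK5-5 (-1.13, adjusted p = 0.009). IGFBP5 was the 1 of the 10 genes called alike with both hairpins in CHLA-90, where 3.51% of all probes were, and 0 of the 10 were called in opposite directions, against 1.4%. The hairpins differed by -1.73 (shERK5-4 minus shERK5-5, adjusted p = 6.01e-05).

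In SK-N-BE(2) the direction with shERK5-4 was the opposite. IGFBP5 read 6.32, 5.91 and 7.22 with shNSC, 7.72, 6.74 and 7.50 with shERK5-4, and 5.97, 6.26 and 6.00 with shERK5-5. Both hairpin groups overlapped shNSC, whose replicate 3 was the highest of its group. The rise of 1.79-fold with shERK5-4 passed the test (log2 0.84, SE 0.28, adjusted p = 0.0315). It was lost when only the arrays of that line were fitted (adjusted p = 0.0666), and without shNSC replicate 1 or 2 or shERK5-4 replicate 1 or 3, where it was 0.55 to 0.76 (adjusted p 0.103 to 0.218). With shERK5-5 the estimate was -0.41 (adjusted p = 0.455), and the hairpins differed by 1.24 (adjusted p = 0.00157). The shERK5-4 effect differed between the lines by -3.70 (SE 0.40, adjusted p = 2.25e-06), and that of shERK5-5 by -0.73 (adjusted p = 0.323). IGFBP3 and IGFBP5 were the 2 of 10 genes called for a line difference in the shERK5-4 effect (20% against 7.23% of all probes). For the shERK5-5 effect 0 were called (5.39% of all probes).

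The summed signal of adrenergic neuroblastoma markers was lowest on the arrays where IGFBP5 was lowest in CHLA-90. Their summed log2 signal, over the 7 measured of 8, was 89.85 to 92.08 with shNSC, 73.69 to 76.46 with shERK5-4 and 87.96 to 90.82 with shERK5-5. With shERK5-4, 5 of the 7 fell and 0 rose, where 18.3% of all probes were called. Among them were DBH (dopamine beta-hydroxylase, log2 fold change -5.27), CHGA (chromogranin A, -3.92) and ISL1 (-3.28). With shERK5-5, 1 fell and 0 rose (12.7% of all probes called). Of the 7 estimates in CHLA-90, 1 was positive with shERK5-4 (median -2.27) and 4 were positive with shERK5-5 (median 0.17). In SK-N-BE(2) 4 of 7 fell with shERK5-4 (sums 72.35 to 74.07 with shNSC and 63.67 to 67.24 with shERK5-4, 23.9% of all probes called), where IGFBP5 was not lower. The part of this shift in the IGFBP5 result was not tested. Of markers of endothelium (5), Schwann cells (3 measured of 5) and blood (5), 0, 1 and 1 were called over the 4 comparisons. Both calls came with shERK5-4 in SK-N-BE(2), against 23.9% of all probes. There a Schwann cell marker rose (33.3%) and a blood marker fell (20%). In the other comparisons 0 were called, against 12.8%, 18.3% and 12.7%. Blood sums in SK-N-BE(2) were 25.3 to 26.68 with shNSC and 22.98 to 23.37 with shERK5-4. Schwann cell sums were 12.87 to 13.58 and 14.03 to 14.56.

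IGFBP4, an inhibitory binding protein, fell to 58.1% of shNSC with shERK5-4 in CHLA-90 (log2 fold change -0.78, adjusted p = 0.0311, limma). Its arrays read 8.81, 8.43 and 9.50 with shNSC, 7.89, 8.37 and 8.13 with shERK5-4, and 7.98, 8.35 and 8.60 with shERK5-5. The shERK5-4 arrays lay below all shNSC arrays, while shERK5-5 overlapped shNSC (-0.60, adjusted p = 0.122). Leaving out shNSC replicate 1 or 3 or shERK5-4 replicate 1 or 3 ended the shERK5-4 call (adjusted p 0.0552 to 0.225), and the change was -0.49 without shNSC replicate 3. The shERK5-5 change passed without shNSC replicate 2 (-0.85, adjusted p = 0.0449). In SK-N-BE(2) the groups overlapped at 7.11 to 7.23, 6.90 to 7.57 and 7.28 to 7.94 except that shERK5-5 lay above shNSC, and the estimates were -0.02 and 0.37.

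IGFBP2, a binding protein abundant in fetal tissue, was lower on average with each hairpin in each line and passed the test in none. It read 13.11 to 13.35 with shNSC, 12.60 to 13.15 with shERK5-4 and 12.50 to 12.92 with shERK5-5 in SK-N-BE(2), with estimates of -0.30 and -0.53. The shERK5-5 arrays there did not overlap shNSC. In CHLA-90 the ranges were 7.73 to 8.45, 7.31 to 7.94 and 6.47 to 7.92, which overlapped, with estimates of -0.42 and -0.70. The last passed without shERK5-5 replicate 2 (-1.01, adjusted p = 0.0232).

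IGFBP2 and IGFBP5 are neighbours on chromosome 2, with 0 coding genes between them in RefSeq, and only IGFBP5 was called in CHLA-90. The difference between their changes was not tested. IGFBP3 neighbours IGFBP1 on chromosome 7 in the same way.

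The lines themselves were compared under shNSC. Their array medians differ, so the median of each array was subtracted first, which left a median difference over all probes of -0.27 (CHLA-90 minus SK-N-BE(2), log2). The values as deposited gave 0.45 and quantile normalization -0.03. On the centred scale 8 of the 10 genes were called, against 56.3% of all probes. IGFBP2 was lower in CHLA-90, with a log2 difference of -5.98 (adjusted p = 5.43e-14), as were IGF1R (-2.51, adjusted p = 2.24e-11) and IGF2R (-1.16, adjusted p = 9.78e-07). As deposited these differences were -5.26, -1.79 and -0.44, and after quantile normalization -5.73, -2.08 and -0.86. IGFBP3, IGF2 and IRS1 were also called lower, but their CHLA-90 shNSC means of 4.01, 4.32 and 3.90 lay near or below the 25th percentile of those arrays. With the probe background unknown, the sizes of these 3 differences were not measured, and none is given. IRS1 was not called on the deposited values (adjusted p = 0.0829).

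Binding proteins on the CHLA-90 side were IGFBP5, higher by 2.45 (3.17 as deposited, 2.52 after quantile normalization), and IGFBP4, higher by 1.04 (1.76 and 1.10). Relative to the shift of all probes, IGFBP5 stood 2.71 and IGFBP4 1.31 above on the centred scale. INSR (0.04, adjusted p = 0.92) and IRS2 (0.21, adjusted p = 0.34) were not called on the centred scale, and both were called as deposited, at 0.75 (adjusted p = 0.0194) and 0.92 (adjusted p = 0.000107). For the other 7 genes the order on the centred scale, from SK-N-BE(2)-high to CHLA-90-high, was IGFBP2, IGF1R, IGF2R, INSR, IRS2, IGFBP4 and IGFBP5. The order of INSR (0.04, SE 0.26) and IRS2 (0.21, SE 0.18) was not tested.

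**Figure D3:**
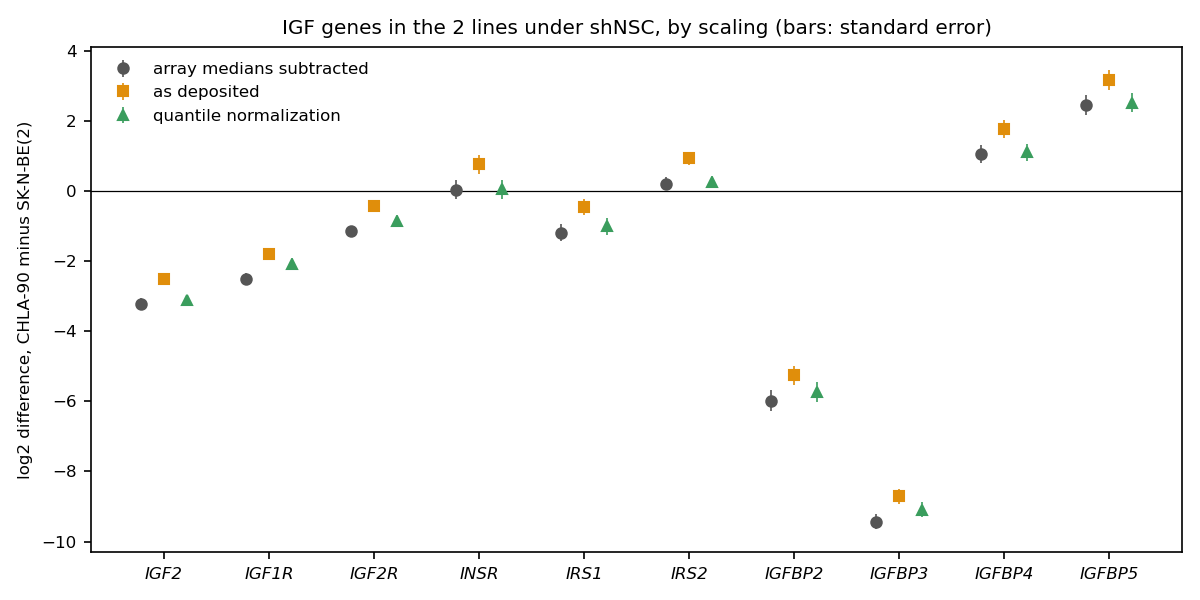
Log2 difference under shNSC, CHLA-90 minus SK-N-BE(2) (y axis), for the 10 IGF genes with 3 scalings of the arrays (symbols) and standard errors (bars), 3 arrays per line. IGFBP2 lay at -5.98 and IGFBP5 at 2.45 on the centred scale, the points of IGFBP3, IGF2 and IRS1 are set against dim CHLA-90 signals and do not measure the size of the difference, and IGFBP4 and IGFBP5 were the 2 genes called above 0 with each scaling.

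The rest of the pathway was read from 9 lists of ligands, receptors, binding proteins, proteases, adaptors, dampeners, kinases and targets, with 76 measured genes outside the 10 (8 listed genes were not analysed here). With shERK5-4 in SK-N-BE(2), 24 rose and 10 fell, 44.7% against the 23.9% of all probes, and with shERK5-5, 14 rose and 7 fell (27.6%, against 12.8%). In CHLA-90, shERK5-4 raised 9 and lowered 11 (26.3%, against 18.3%) and shERK5-5 raised 6 and lowered 10 (21.1%, against 12.7%). Their median log2 fold changes were 0.27, 0.05, 0.06 and 0.02. Both hairpins called 8 of the 76 alike in SK-N-BE(2) (5.21% of all probes) and 6 in CHLA-90 (3.51%), and called 6 (1.94%) and 3 (1.4%) in opposite directions.

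**Figure D4:**
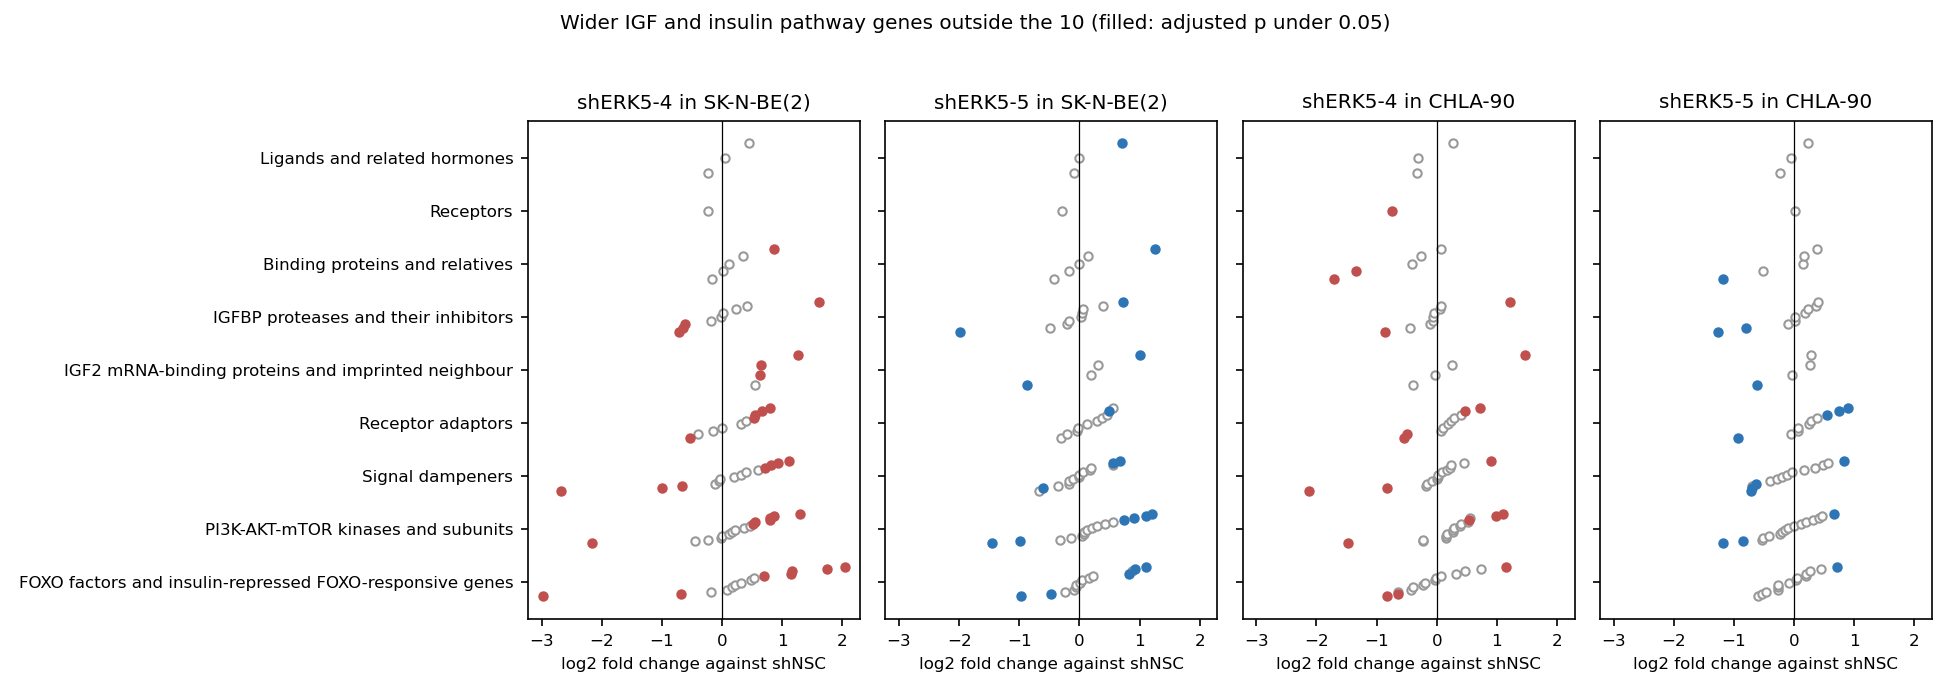
Log2 fold change against shNSC (x axis) of the 76 pathway genes outside the 10, by list (rows), in 4 panels for hairpin and line; filled points had an adjusted p under 0.05. The lowest points of the shERK5-4 panels include PTPN1 (-2.68 and -2.13) among the dampeners, and AKT1 lay to the right in all 4.

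Among ligands and related hormones, IGF1 was not called in any of the 4 comparisons with shNSC. Its group means were 5.09 to 5.32 in SK-N-BE(2) and 5.71 to 6.04 in CHLA-90. INSL3, a relaxin-family hormone, rose with shERK5-5 in SK-N-BE(2) (0.70), a call lost without any of 3 arrays (adjusted p 0.0784 to 0.102). The insulin receptor-related receptor INSRR fell with shERK5-4 in CHLA-90 (-0.74), which was lost without 1 array (adjusted p = 0.0989).

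The list of binding proteins and relatives held 9 measured genes, the 4 described above included. In SK-N-BE(2) 2 rose and 1 fell with shERK5-4 (33.3% against 23.9% of all probes). With shERK5-5, 2 rose and 0 fell there (22.2% against 12.8%). In CHLA-90 0 rose and 4 fell with shERK5-4, IGFBP4 and IGFBP5 among them (44.4% against 18.3%). With shERK5-5, 0 rose and 2 fell there (22.2% against 12.7%). IGFBP7, a secreted relative with low affinity for IGFs, fell with shERK5-4 in CHLA-90 (-1.71, adjusted p = 1.87e-06) and rose with shERK5-5 in SK-N-BE(2) (1.26, adjusted p = 0.000127). Its means were 12.66, 13.01 and 13.92 in SK-N-BE(2) with shNSC, shERK5-4 and shERK5-5, and 8.41, 6.70 and 7.88 in CHLA-90. IGFBPL1, another relative, fell with both hairpins in CHLA-90 (-1.34 and -1.17, adjusted p = 0.000117 and 0.000939) and rose with shERK5-4 in SK-N-BE(2) (0.86, adjusted p = 0.00565). IGFBP7 and IGFBPL1 thus had, like IGFBP5, a lower value with shERK5-4 in CHLA-90 and a positive estimate in SK-N-BE(2). IGFALS, the acid-labile subunit of the serum complex, was not called in any of the 4 comparisons with shNSC.

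STC1, a secreted inhibitor of the IGFBP-cleaving pappalysins, changed in opposite directions with the hairpins in both lines. It rose with shERK5-4 (1.61 in SK-N-BE(2), adjusted p = 1.26e-05, and 1.23 in CHLA-90, adjusted p = 0.00048) and fell with shERK5-5 (-1.99, adjusted p = 2.04e-06, and -1.27, adjusted p = 0.000673). STC2, its homologue, moved the other way in SK-N-BE(2) (-0.64 and 0.73), and each of these calls was lost without any of 3 arrays (adjusted p 0.0628 to 0.124). PAPPA, the protease that cleaves IGFBP4 and IGFBP5, fell with shERK5-4 in SK-N-BE(2) (-0.72), a call lost without 1 array (adjusted p = 0.062). ADAM12, which cleaves IGFBP3 and IGFBP5, fell with both hairpins in CHLA-90 (-0.86 and -0.79) and with shERK5-4 in SK-N-BE(2) (-0.62). MMP7 was not called in any of the 4 comparisons with shNSC. Of the 9 genes of this list, 1 rose and 3 fell, 1 rose and 1 fell, 1 rose and 1 fell, and 0 rose and 2 fell in the 4 comparisons, in the order used above. That is 44.4%, 22.2%, 22.2% and 22.2% called, against 23.9%, 12.8%, 18.3% and 12.7% of all probes.

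The list of IGF2 mRNA-binding proteins and the imprinted neighbour of IGF2 had 4 measured genes, LIN28B, IGF2BP1, IGF2BP2 and IGF2BP3. The imprinted neighbour itself was not analysed. LIN28B, an RNA-binding oncoprotein of high-risk neuroblastoma, rose with both hairpins in SK-N-BE(2) (1.27 and 1.00) and with shERK5-4 in CHLA-90 (1.47). Its adjusted p was 0.000114, 0.00267 and 3.31e-05. IGF2BP3, which binds IGF2 mRNA, rose with shERK5-4 (0.65) and fell with shERK5-5 (-0.86) in SK-N-BE(2), and the rise was lost without 1 array (adjusted p = 0.11). It also fell with shERK5-5 in CHLA-90 (-0.62), which was lost without any of 4 arrays. IGF2BP1 rose with shERK5-4 in SK-N-BE(2) (0.64, adjusted p = 0.0492, lost without any of 3 arrays). Its shNSC signals there, 3.07 to 4.12, lay around the 25th percentile of that line's arrays (3.54 to 3.67). With the probe background unknown, the size of this rise is uncertain. IGF2BP2 was not called in any of the 4 comparisons with shNSC.

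Among 12 measured receptor adaptors, IRS1 and IRS2 included, 4 rose and 1 fell with shERK5-4 in SK-N-BE(2) (41.7% against 23.9% of all probes). With shERK5-5, 2 rose there, IRS2 among them (16.7% against 12.8%). In CHLA-90 2 rose and 2 fell with shERK5-4 (33.3% against 18.3%), and 4 rose and 1 fell with shERK5-5 (41.7% against 12.7%). The docking protein GAB1 moved in opposite directions with the hairpins in both lines (-0.53 and 0.49, then -0.49 and 0.54), and all 4 calls were lost in fits without 1 array (2 to 6 such fits each, adjusted p 0.051 to 0.16). GRB2, the bridge from receptors to RAS, rose with shERK5-4 in both lines (0.79 and 0.72, adjusted p = 0.00163 and 0.0052). SOS1, the exchange factor it carries, rose with both hairpins in CHLA-90 (0.47 and 0.90) and with shERK5-4 in SK-N-BE(2) (0.66), and the shERK5-4 call in CHLA-90 was lost without any of 6 arrays. SHC1 fell with both hairpins in CHLA-90 (-0.54 and -0.93) and rose with shERK5-4 in SK-N-BE(2) (0.54), and the shERK5-4 calls were lost without any of 5 and of 3 arrays. GRB10, an inhibitory adaptor, rose with shERK5-5 in CHLA-90 (0.75, lost without 1 array).

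Among the 14 measured dampeners PTPN1, the phosphatase that removes phosphate from INSR and IGF1R, fell with each hairpin in each line. Its means were 11.49, 8.81 and 10.89 in SK-N-BE(2) with shNSC, shERK5-4 and shERK5-5, and 12.15, 10.02 and 11.42 in CHLA-90. The log2 fold changes were -2.68 (adjusted p = 1.2e-11) and -0.60 (adjusted p = 0.00818) in SK-N-BE(2) and -2.13 (adjusted p = 6.98e-10) and -0.72 (adjusted p = 0.00222) in CHLA-90. INPPL1, the lipid phosphatase SHIP2, rose with shERK5-4 in both lines (1.11 and 0.91) and with shERK5-5 in SK-N-BE(2) (0.57, lost without any of 6 arrays). TSC1, an inhibitor of mTOR signalling, rose with shERK5-4 in SK-N-BE(2) (0.92, adjusted p = 0.000124). PHLPP2, an AKT phosphatase, fell there (-0.99, adjusted p = 0.00011) and with shERK5-5 in CHLA-90 (-0.63, lost without any of 3 arrays). In this list 4 rose and 3 fell, 2 rose and 1 fell, 1 rose and 2 fell, and 1 rose and 3 fell. As shares these were 50%, 21.4%, 21.4% and 28.6%, against 23.9%, 12.8%, 18.3% and 12.7% of all probes.

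AKT1, the kinase downstream of the receptor substrates, rose in all 4 comparisons, by 0.86 and 0.75 in the MYCN-amplified line and by 0.99 and 0.66 in CHLA-90. Their adjusted p was 0.000492, 0.00364, 0.000168 and 0.0117, and the last was lost without either of 2 arrays (adjusted p 0.0554 to 0.0583). PIK3CB, a catalytic subunit of phosphoinositide 3-kinase, rose with shERK5-4 in both lines (1.29, adjusted p = 8.23e-07, and 1.11, adjusted p = 1.09e-05). RPS6KB2, a ribosomal S6 kinase, fell with shERK5-4 in both (-2.16, adjusted p = 3.38e-07, and -1.47, adjusted p = 8.6e-05). MTOR fell with shERK5-5 in both lines (-0.98, adjusted p = 0.00185, and -1.17, adjusted p = 0.000447) and rose with shERK5-4 in SK-N-BE(2) (0.79, adjusted p = 0.00585). Of the 16 measured kinases and subunits, 6 rose and 1 fell, 4 rose and 2 fell, 3 rose and 1 fell, and 1 rose and 2 fell. Called shares were thus 43.8%, 37.5%, 25% and 18.8%, against 23.9%, 12.8%, 18.3% and 12.7% of all probes.

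The last list held the FOXO factors and genes that FOXO factors induce when insulin signalling is low, 14 in all. In SK-N-BE(2) 5 rose and 2 fell with shERK5-4 (50% against 23.9% of all probes). With shERK5-5, 3 rose and 2 fell there (35.7% against 12.8%). In CHLA-90 1 rose and 2 fell with shERK5-4 (21.4% against 18.3%), and 1 rose and 0 fell with shERK5-5 (7.14% against 12.7%). TXNIP, an inhibitor of thioredoxin and glucose uptake, rose with both hairpins in SK-N-BE(2) (1.75 and 1.11) and with shERK5-4 in CHLA-90 (1.15). CCNG2, an unconventional cyclin, rose with shERK5-4 and fell with shERK5-5 in SK-N-BE(2) (2.04 and -0.97), and did the opposite in CHLA-90 (-0.65 and 0.72). The CHLA-90 calls were lost without either of 2 arrays and any of 3 arrays (adjusted p 0.0802 to 0.0843 and 0.051 to 0.0794). FOXO3 fell with both hairpins in SK-N-BE(2) (-0.68 and -0.48, the second lost without any of 4 arrays) and with shERK5-4 in CHLA-90 (-0.83). The sestrins SESN1 and SESN3, stress-induced restrainers of mTOR, rose with both hairpins in SK-N-BE(2) (1.15 and 0.82, and 0.70 and 0.93). Without 1 array, 3 of these 4 calls were lost (adjusted p 0.0545 to 0.163), the exception being SESN1 with shERK5-4. GADD45A, a growth-arrest gene, fell with shERK5-4 in SK-N-BE(2) (-2.98, adjusted p = 1.69e-10), where CITED2 rose (1.17, adjusted p = 0.00683).

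For the 4 genes called at least 2 times, the genes with the most similar set of 4 log2 fold changes were found by Euclidean distance. This is a description over 4 comparisons that share control arrays. Small RNA genes, antisense, LOC and LINC genes, numbered open reading frames, olfactory receptors and FAM or KIAA symbols were passed over. INTS2 lay nearest to IGF2R (distance 0.193), with changes of 0.45, -2.05, 0.40 and -1.32, followed by BTBD10 (0.272) and UNC13B (0.342). RNF111 was nearest to IRS2 (0.18, changes -0.09, 1.24, 0.47 and 1.59), followed by MAPT (0.317) and AGO1 (0.346). IGFBP3 was most closely matched by LGI1 (0.316), HAS2 (0.327) and PTPRE (0.42). For IGFBP5, ITGA11 came first at 0.837, then CRH (1.09) and FNDC5 (1.11). IGFBP5 also had the largest single change of the 4 genes (-2.87, shERK5-4 in CHLA-90). The distances were not scaled to the size of the changes, so they do not rank how unusual the patterns are.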

How the data were processed

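The authors deposited 1 log2 signal for each probe and array, already summarised and normalized. Their method is not given in the sources used here. Log base 2 was inferred from the values, and no detection calls were used. All 21448 probes were tested: 17709 had 1 gene symbol, 0 several and 3739 none. All 18 arrays entered a single limma fit (limma 3.58.1, R 4.3.3) of 6 group means, with 12 residual and 9.588 prior degrees of freedom. The Benjamini-Hochberg adjustment ran over every probe of a comparison, and the threshold was 0.05. Errors of changes are standard errors. For the lines under shNSC each array's median was subtracted first.

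The 10 genes, the 9 pathway lists and the marker lists were chosen with earlier results of these data known. Named besides the 10 were pathway genes called by both hairpins of a line, and otherwise up to 2 per list with the smallest p. For genes called in at least 2 comparisons, the 3 nearest genes by pattern were named, with the symbol classes given above passed over. Promoter windows came from RefSeq. Alternatives were other normalizations, filters, thresholds and fits, and leaving out each array. On simulated data for shERK5-4 in SK-N-BE(2) (21448 probes, 200 changed) the fit recovered 98% of log2 changes of 2 and 72% of changes of 1, with 9 false calls. The simulation had independent noise and a far smaller changed share than the 23.9% of probes called in that comparison. These figures check the fit and do not give its power on the real data.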

Additional observations from a re-analysis of the deposited data

Results flagged for a closer look

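The following effects differed between the lines by the test of the difference itself (CHLA-90 minus SK-N-BE(2), log2, adjusted over all probes). For shERK5-4 the differences were 1.64 for IGFBP3, -3.70 for IGFBP5, -2.19 for IGFBPL1 and -2.07 for IGFBP7. They were -1.08 for SHC1, 1.08 for PHLPP2, 2.54 for GADD45A, -1.81 for CITED2, -2.69 for CCNG2 and -1.09 for SESN3. For shERK5-5 they were -1.79 for IGFBP7, 1.68 for CCNG2 and -0.84 for ADAM12. The SESN3 call was lost in 10 of the fits without 1 array (adjusted p 0.0556 to 0.141) and the ADAM12 call in 9 (adjusted p 0.0516 to 0.0892). IGFBP3 read 3.82 to 4.34 on all CHLA-90 arrays, about their 25th percentile, so a fall like that of SK-N-BE(2) may not be measurable there and its line difference is not shown to be a difference in response.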

How the results depend on the processing

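The 11 calls of the 10 genes against shNSC were refitted under 176 alternatives in all. They held in 165, were lost in 11 (IGFBP4 in CHLA-90 and IGFBP5 in SK-N-BE(2), both with shERK5-4) and reversed in 0. At a threshold of 0.01 the shERK5-4 comparisons kept 1 called gene in each line, and 22 and 8 of the wider genes stayed called with shERK5-4 in SK-N-BE(2) and shERK5-5 in CHLA-90. Array weights gave 4 called genes for shERK5-4 in CHLA-90 and 2 called alike there, as did leaving out dim probes (2). Quantile normalization gave 1 line difference for shERK5-5 (IGF2, -0.78, adjusted p = 0.0444). Leaving out each array in turn gave 1 to 2 called genes with shERK5-4 in either line and 1 to 2 alike in CHLA-90, 15 to 17 and 25 to 32 wider genes with shERK5-4 in CHLA-90 and SK-N-BE(2), and 11 to 20 and 14 to 20 with shERK5-5. Uncalled estimates near 0 changed sign with array weights: IGF1R (0.0206 with shERK5-4) and IRS1 (0.0218 with shERK5-5) in CHLA-90, IRS1 (0.0349) and IGFBP4 (0.0884) with shERK5-4 in SK-N-BE(2). Leaving out 1 array did the same, over ranges with shERK5-4 of -0.055 to 0.035 for IGF1R, -0.15 to 0.27 for INSR and -0.05 to 0.20 for IGFBP3 in CHLA-90, and -0.158 to 0.0617 for IRS1 and -0.23 to 0.10 for IGFBP4 in SK-N-BE(2). With shERK5-5 they were -0.51 to 0.15 for INSR and -0.27 to 0.11 for IRS1 in CHLA-90, and -0.182 to 0.0583 for IRS1 in SK-N-BE(2). The cause was not tested. Same-numbered arrays of a line deviated together with correlations of -0.126 to 0.204 in SK-N-BE(2) and -0.056 to 0.204 in CHLA-90, so the numbers were not taken to pair them. A replicate block gave the same counts of called IGF genes (2, 4, 2 and 3), and lost the SESN3 line difference (adjusted p = 0.0608).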
